A study of Mus musculus with 12 samples.

Results

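Chamber identity transcription factors are DNA-binding proteins whose levels differ between the atria and the ventricles or that act together in both chambers of the heart. The 9 genes described here were picked by symbol, Tbx5, Tbx20, Nr2f1, Nr2f2, Nkx2-5, Irx4, Hey2, Gata4 and Hand2, out of 51826 entries in the count table, and all 9 had counts. They were measured by poly(A) RNA-Seq in 12 libraries, the atria and the ventricles of 3 CUG960 +dox mice (V119, V120 and V123) and 3 MHCrtTA +dox controls (V327, V333 and V334). CUG960 mice were homozygous for TREDT960I, a tetracycline-responsive transgene that makes an expanded CUG repeat RNA in human DMPK exons, and hemizygous for MHCrtTA. Controls were hemizygous for MHCrtTA and had no repeat transgene. All 6 mice were female, of the FvB strain and 10 weeks old, and dox was given from postnatal day 1 in both groups, so that dox and the transactivator were shared by both. The MHCrtTA transgene uses the α-myosin heavy chain promoter, which limits the repeat RNA to cardiomyocytes, whereas whole chambers were sequenced. Controls came from other matings than CUG960 mice, so genotype and mating cannot be told apart. The questions were how the 9 factors were distributed between chambers, and whether their levels differed between CUG960 and control mice.

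Atrial and ventricular cardiomyocytes share a common set of factors and are kept distinct by others. Tbx5, Gata4 and Nkx2-5 bind cardiac enhancers together, Tbx20 and Hand2 act in chamber growth and maintenance, the COUP-TF orphan nuclear receptors Nr2f1 and Nr2f2 favor atrial gene programs, and Irx4 and Hey2 favor ventricular ones. Hey2 is also a Notch target in endothelial cells, and Nr2f2 is known for its role in venous endothelium, and whole-chamber RNA cannot say which cells the transcripts came from.

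Library totals were between 116127966 and 160676189 counts. Levels are given as CPM, counts relative to the library size after scaling by edgeR's TMM factors over all 12 libraries, and a gene passed the threshold with a Benjamini-Hochberg adjusted P value under 0.05 over all genes tested and a fold change of at least 1.5. The labels of the chambers were checked on cardiomyocyte genes. Myl7, the atrial myosin regulatory light chain, was between 2532 and 3318 CPM in the atria and between 0.192 and 55.8 CPM in the ventricles. Myl2, its ventricular counterpart, was between 8484 and 10470 CPM in the ventricles and between 8.81 and 33.5 CPM in the atria. Both separated the chambers in every mouse, but 2 libraries held more of the other chamber's gene than the rest. In the ventricles of V123, Myl7 was at 2.20% of its level in the atria of the same mouse, against 0.0058% in V119 and 0.0105% in V120. The controls V327, V333 and V334 were at 0.277%, 0.174% and 0.689%, all above V119 and V120. In the atria of V327, Myl2 was at 0.366% of its level in the ventricles of the same mouse, against at most 0.138% in the other 5 mice. Values without V327 are given beside Irx4, and values without V123 beside Nr2f1, Hey2, Nppa and the atrial cardiomyocyte genes.

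In control hearts 6 of the 9 factors were separated between chambers by at least 1.5-fold. Tbx5, Tbx20, Nr2f1 and Nr2f2 were higher in atria, Irx4 and Hey2 were higher in ventricles, and Gata4, Nkx2-5 and Hand2 were within 1.5-fold between chambers with TMM scaling. Of the 9 genes tested, 4 were past the threshold and higher in atria, as were 18.3% of all genes tested, and 2 were past it and lower in atria, as were 16.6% of all genes. At any fold change, 9 of 9 had an adjusted P value under 0.05, against 55.7% of all genes. The scaling mattered for the small differences: with library totals in place of TMM, the median of all genes between chambers was at 0.49 in log2 in the controls, against 0.03 with TMM.

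Irx4, a homeodomain factor of ventricular cardiomyocytes, was near 0 in atria. Control ventricles had 22.6, 26.7 and 25.2 CPM in V327, V333 and V334, and CUG960 ventricles had 32.0, 33.0 and 30.9 CPM in V119, V120 and V123. The atrial libraries held 10, 6 and 2 counts in the same order of controls and 2, 7 and 3 counts in CUG960 mice. Every ventricular library was thus far above every atrial one. Summed over controls, 18 atrial counts (exact 95% Poisson interval 10.7 to 28.4) stood against 8167 ventricular counts, a ratio of normalized levels of 667 (421.5 to 1125, counting error only). In CUG960 mice, 12 atrial counts stood against 13089, a ratio of 1156 (661.5 to 2238). The fitted log2 difference of atria against ventricles was −9.36 ± 0.26 (SE, adjusted P value 1.2e-07 by edgeR) in controls and −10.15 ± 0.19 (3.2e-09) in CUG960 mice. The highest atrial count, in V327, came with the highest atrial Myl2: Irx4 was at 0.290% and Myl2 at 0.366% of the ventricular level in this mouse. Without V327, 8 atrial counts stood against 5654 ventricular ones, a ratio of 1074 (544.5 to 2488), and the fitted log2 difference in controls was −10.03. In the other 5 mice Irx4 was between 0.0437% and 0.137% and Myl2 between 0.0841% and 0.138%.

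The sequences before the starts of Irx4 and Hey2, which were higher in ventricles, and of Tbx20, which was higher in atria, are shown because these genes also had an adjusted P value under 0.05 between genotypes in ventricles. Each is the part without annotated exons of the 250 bases before the RefSeq start on GRCm38.p6, and these 3 windows span chr13:73260247-73260478 on the plus strand for Irx4, and chr10:30842802-30843033 and chr9:24774304-24774553, both on the minus strand, for Hey2 and Tbx20. Capitals mark GGGCGG, the GC box, and CCAAT, the CCAAT box, on either strand.
Irx4: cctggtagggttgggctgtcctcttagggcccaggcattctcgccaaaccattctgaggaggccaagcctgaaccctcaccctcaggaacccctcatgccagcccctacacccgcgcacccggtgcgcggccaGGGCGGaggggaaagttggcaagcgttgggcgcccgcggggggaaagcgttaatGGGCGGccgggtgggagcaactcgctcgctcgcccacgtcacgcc
Hey2: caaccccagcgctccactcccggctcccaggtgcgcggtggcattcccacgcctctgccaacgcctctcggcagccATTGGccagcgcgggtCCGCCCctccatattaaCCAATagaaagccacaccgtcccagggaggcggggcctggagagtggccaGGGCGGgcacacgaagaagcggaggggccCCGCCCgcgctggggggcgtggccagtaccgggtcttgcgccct
Tbx20: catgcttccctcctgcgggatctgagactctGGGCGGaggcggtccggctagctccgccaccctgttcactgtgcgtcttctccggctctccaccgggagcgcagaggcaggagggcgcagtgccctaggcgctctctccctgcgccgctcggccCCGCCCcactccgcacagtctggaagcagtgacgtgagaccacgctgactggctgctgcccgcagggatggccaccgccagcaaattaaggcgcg
The GC box was found 2 times in the Irx4 window, 3 times in that of Hey2 and 2 times in that of Tbx20, and the CCAAT box 2 times in that of Hey2. Among 32851 RefSeq windows of 250 bases, 32.7% held a GC box and 33.8% a CCAAT box. The letters of 5 factor motifs were also searched on both strands, the T-box site AGGTGT (in 11.8% of windows), the GATA site AGATAA (9.99%), the NK2 site TNAAGTG (10.1%), the nuclear receptor site AGGTCA (14%) and the E-box CACGTG (6.02%), of which AGGTGT and AGGTCA share their first 4 letters. None of the 5 was in the windows of Irx4, Hey2 or Tbx20, nor in that of Nkx2-5 (207 bases). Promoters of Tbx5, Gata4, Nr2f1, Nr2f2 and Hand2 were not analyzed here.

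Hey2, a basic helix-loop-helix repressor downstream of Notch, was the other gene higher in ventricles. Control ventricles had 4.99, 4.604 and 4.30 CPM and control atria 2.18, 2.13 and 2.08 CPM. CUG960 ventricles had 3.79, 2.90 and 3.03 CPM and CUG960 atria 0.987, 1.44 and 1.60 CPM. The chambers did not overlap in either genotype, and in each of the 6 mice the atria had the lower value. The log2 difference of atria against ventricles was −1.13 ± 0.12 (adjusted P value 7.6e-05) in controls and −1.29 ± 0.21 (6.4e-04) in CUG960 mice, or −1.47 without V123.

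Nr2f1 was the member with the largest log2 difference in favor of atria. Control atria had 24.0, 22.8 and 21.9 CPM and control ventricles 2.10, 2.14 and 2.31 CPM, a log2 difference of 3.38 ± 0.09 (adjusted P value 9.2e-08). In CUG960 mice it was at 24.6, 26.4 and 22.9 CPM in atria and 2.14, 1.52 and 1.46 CPM in ventricles, a log2 difference of 3.83 ± 0.16 (1.9e-07). All atrial libraries were well above all ventricular ones. V123, whose ventricles held the most Myl7, had the lowest ventricular Nr2f1, and without V123 the log2 difference in CUG960 mice was 3.79.

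Nr2f2, the related receptor, showed the same order of chambers at higher levels. Control atria had 47.9, 45.2 and 44.9 CPM against 8.48, 7.61 and 8.43 CPM in ventricles, and CUG960 atria had 53.8, 45.5 and 56.1 CPM against 6.03, 6.65 and 7.67 CPM. The log2 difference was 2.48 ± 0.08 (adjusted P value 1.6e-07) in controls and 2.92 ± 0.12 (2.0e-07) in CUG960 mice. The chambers were far apart in both genotypes.

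Tbx5, the T-box factor that drives atrial and conduction gene programs, was several times higher in atria. Control atria had 279.6, 231 and 256.7 CPM and control ventricles 33.4, 37.7 and 31.1 CPM. CUG960 atria had 186.5, 187.9 and 205.6 CPM and CUG960 ventricles 35.2, 38.9 and 32.9 CPM. The log2 difference was 2.90 ± 0.10 (adjusted P value 2.7e-07) in controls and 2.42 ± 0.08 (8.6e-08) in CUG960 mice. The atria of the genotypes did not overlap, and the ventricles did.

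Tbx20, a T-box factor needed in adult cardiomyocytes, was abundant in both chambers and higher in atria. Control atria had 272.3, 355.3 and 299.6 CPM and control ventricles 111.7, 106.7 and 127.9 CPM, a log2 difference of 1.41 ± 0.11 (adjusted P value 1.7e-05). CUG960 atria had 224.5, 246.8 and 301.3 CPM and CUG960 ventricles 159.5, 139.6 and 164.3 CPM, a log2 difference of 0.72 ± 0.12 (6.7e-04). The chambers did not overlap in either genotype, and CUG960 ventricles lay between control ventricles and the atria.

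The remaining 3 factors were inside the 1.5-fold limit between chambers with TMM scaling, and their differences depended on the scale. Gata4, a zinc finger factor of all cardiomyocytes, was at 123.6, 129.7 and 119.6 CPM in control atria and 114.3, 108.6 and 105.7 CPM in control ventricles. It was at 105.8, 104.4 and 105.2 CPM in CUG960 atria and 115.7, 119.3 and 115 CPM in CUG960 ventricles. Atria were above ventricles in every control and below them in every CUG960 mouse, by a log2 difference of 0.17 ± 0.06 (adjusted P value 0.045) and −0.17 ± 0.06 (0.037), which became 0.63 (7.1e-05, past the threshold) and 0.225 when library totals were used as the scale. The adjusted P value was under 0.05 in 0 of 3 fits that left out a mouse, at 0.11 to 0.20 in controls and 0.12 to 0.22 in CUG960 mice.

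Nkx2-5, the homeodomain factor that binds with Gata4 and Tbx5, was at 62.3, 64.8 and 61.4 CPM in control atria and 41.9, 53.8 and 52.5 CPM in control ventricles, a log2 difference of 0.34 ± 0.10 (adjusted P value 0.018). In CUG960 mice it was at 55.7, 64.3 and 44.8 CPM in atria and 56.6, 61.4 and 41.7 CPM in ventricles, with a log2 difference of 0.03 ± 0.16 (0.90). With library totals as the scale the log2 differences were 0.79 in controls (2.3e-04, past the threshold) and 0.42 in CUG960 mice. V123 had the lowest Nkx2-5 of the CUG960 mice in both chambers, and the chambers of this genotype overlapped. The fit did not pair the chambers of a mouse. Within mice, the log2 ratios of atria to ventricles were −0.024, 0.066 and 0.105 in V119, V120 and V123. In the controls V327, V333 and V334 they were 0.575, 0.269 and 0.226.

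Hand2, a basic helix-loop-helix factor best known from the right ventricle and its precursors, was at 27.9, 29.3 and 26.01 CPM in control atria and 35.5, 42.1 and 46.1 CPM in control ventricles. It was at 29.5, 30.0 and 27.6 CPM in CUG960 atria and 37.9, 36.4 and 36.5 CPM in CUG960 ventricles. It was lower in atria by a log2 difference of −0.58 ± 0.10 (adjusted P value 0.0014) in controls, just inside the 1.5-fold limit, and −0.37 ± 0.07 (0.0016) in CUG960 mice, which became −0.13 and 0.03 with library totals as the scale. In controls Hand2 did pass the threshold with DESeq2, with RLE factors and in 2 of 3 fits that left out a mouse. Atria and ventricles did not overlap in either genotype.

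In CUG960 hearts the same 6 of the 9 factors were past the threshold between chambers, 4 of them higher in atria (17.2% of all genes tested) and 2 lower (16.4% of all genes). At any fold change 8 of 9 had an adjusted P value under 0.05, against 54.2% of all genes. Leaving out V123 or any other mouse ended none of these 6 calls in either genotype.

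**Figure D1:**
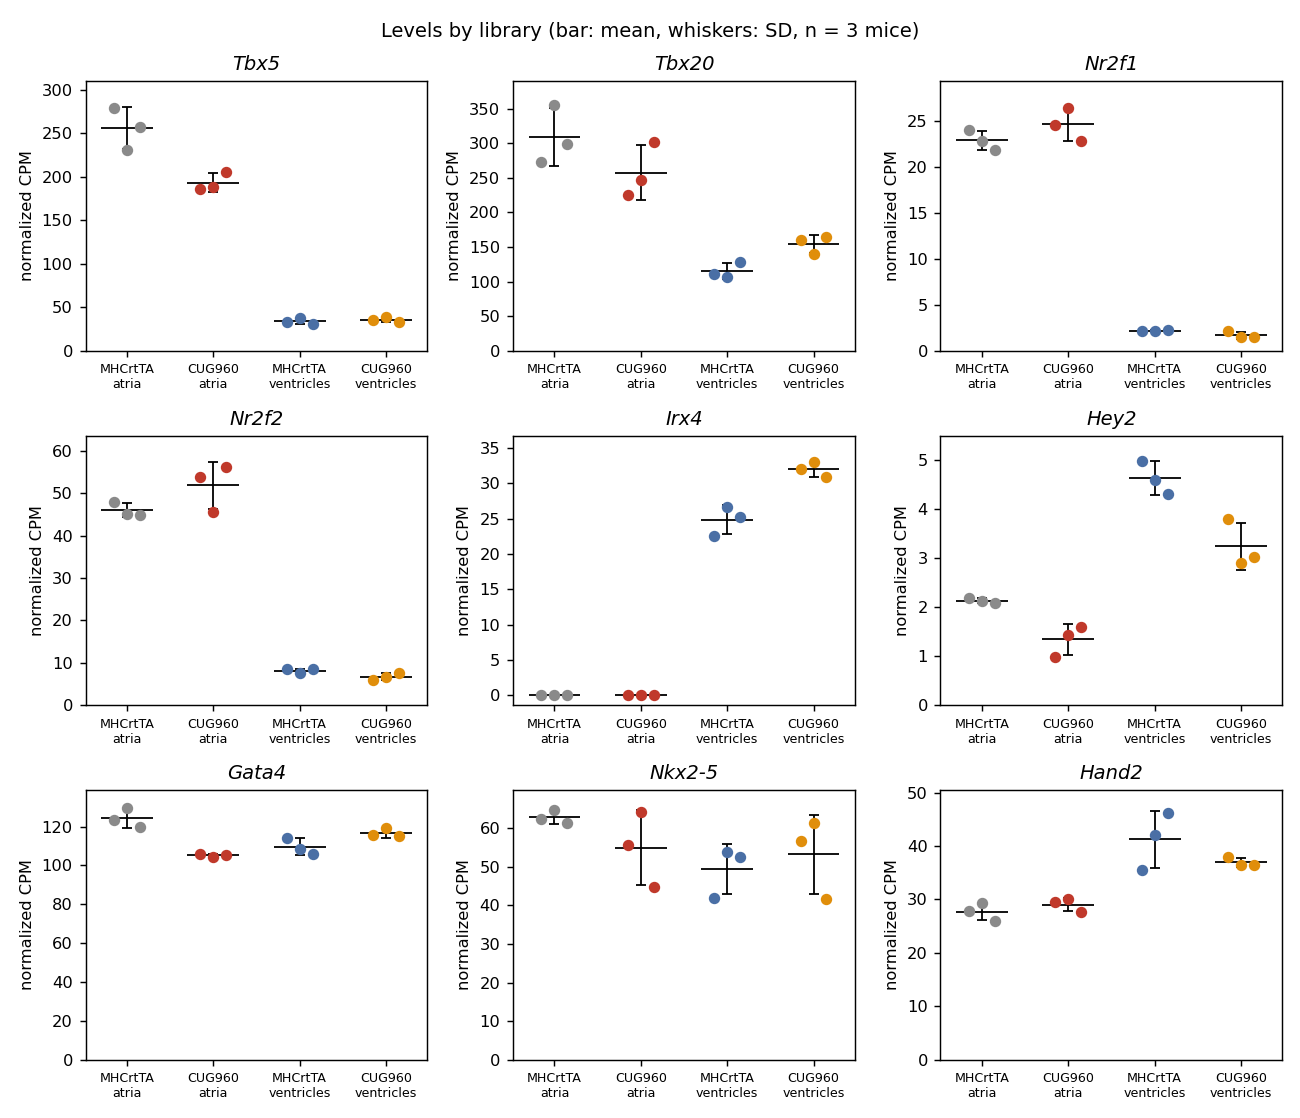
Normalized CPM of the 9 factors in each library, with the mean (horizontal bar) and SD (whiskers) of the 3 mice in each of the 4 groups, on linear axes. Irx4 was at 22.6 to 33.0 CPM in ventricles and near 0 in atria, and Tbx5, Nr2f1 and Nr2f2 were several times higher in atria.

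**Figure D2:**
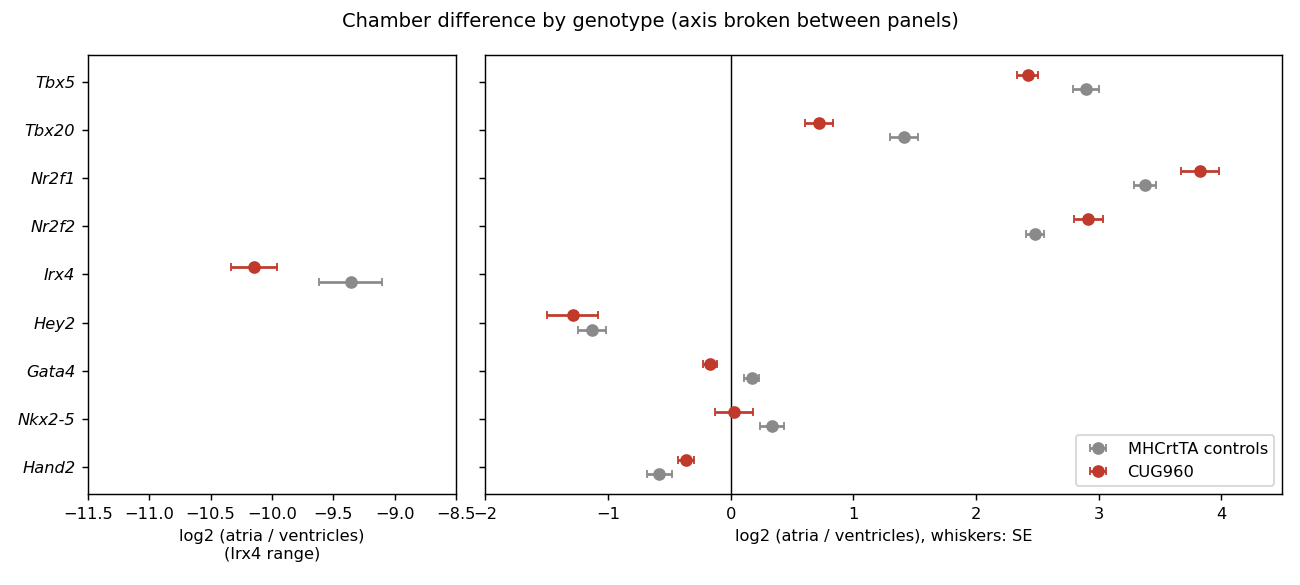
Fitted log2 difference of atria against ventricles for each factor in MHCrtTA controls (gray) and CUG960 mice (red), with whiskers for the SE, and the axis broken between the panels at the same scale. The values ran from −10.15 for Irx4 to 3.83 for Nr2f1.

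The order of the factors within a chamber was compared per length, as CPM per kb of annotated exon. In control atria the level per kb was highest for Tbx5 (54.7 ± 5.20, SD, n = 3), followed by Nkx2-5 (36.6), Gata4 (31.8), Tbx20 (25.8), Hand2 (11.8), Nr2f2 (5.33), Nr2f1 (4.49), Hey2 (0.464) and Irx4 (0.0144). No neighbors in this order overlapped between libraries. In control ventricles Nkx2-5 (28.7 ± 3.81 CPM per kb) and Gata4 (28.1) came first and overlapped. Hand2 (17.5) was next, then Tbx20 (9.62) and Irx4 (9.52), which overlapped, then Tbx5 (7.28), Hey2 (1.01) and Nr2f2 (0.948), the last 2 of which overlapped, and Nr2f1 (0.429). Tbx5 thus stood at the top of the atrial order per length and at place 6 of 9 in ventricles. In CUG960 atria the order was that of control atria, with Tbx5 at 41.4 CPM per kb and with Nkx2-5 and Gata4 overlapping. In CUG960 ventricles Nr2f2 (0.786 CPM per kb) and Hey2 (0.706) traded places within their overlap. Counted per kb of the longest transcript instead, Nr2f2 came before Hey2 in control ventricles and Tbx20 before Hand2 in CUG960 ventricles.

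For the 6 factors past the threshold between chambers, the log2 differences between genotypes were smaller in size than those between chambers. That of Gata4 in atria (−0.25) was larger than its chamber differences (0.17 and −0.17), and that of Nkx2-5 in atria (−0.20) was larger than its chamber difference in CUG960 mice (0.03). In atria 1 of the 8 factors tested, Hey2, was past the threshold, lower in CUG960 mice, while 2.12% of all genes tested were past it and lower and 3.37% past it and higher. At any fold change, 3 of 8 (Hey2, Tbx5 and Gata4) had an adjusted P value under 0.05, all lower, against 14.6% of all genes. These 3 were also the ones with an unadjusted P value under 0.05, against 30.2% of all genes, and DESeq2 passed 1 of 8, again Hey2, against 5.91% of all genes. The same 3 had groups that did not overlap, as did 35.7% of all genes. The median log2 difference of the 8 was −0.22, and that of all genes −0.01. Irx4 had too few atrial counts to be tested. In a whole chamber, fewer cells of a type and less RNA per cell cannot be told apart.

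Hey2 fell in CUG960 atria by 0.67 on the log2 scale (SE 0.19, adjusted P value 0.049), from a mean of 2.13 ± 0.05 CPM to 1.34 ± 0.32 CPM (SD, n = 3). The mice behind it were uneven, since V119 was at 0.987 CPM and V123 at 1.60 CPM. The adjusted P value was between 0.037 and 0.12 over the fits that each left out a mouse, and among these it passed only without V123. With all mice, Hey2 did not pass in atria when RLE factors or library totals replaced the TMM scaling. In ventricles Hey2 was also lower in all 3 CUG960 mice than in any control, by a log2 difference of −0.52 ± 0.14 (adjusted P value 0.049), within the 1.5-fold limit, and among the fits that left out a mouse it passed the threshold only without V119 (−0.65, 0.038), and was −0.48 (0.13) without V123.

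The summed level of 9 endothelial markers moved in the same direction as Hey2. It was 1061, 1137 and 905.6 CPM in control atria against 743.3, 881.4 and 796.7 CPM in CUG960 atria, and 1092, 921.2 and 1059 CPM in control ventricles against 779.8, 763.2 and 823.7 CPM in CUG960 ventricles. The genotypes did not overlap in either chamber. Over all libraries the most abundant of these markers was Pecam1, with a log2 difference of −0.71 in atria and −0.53 in ventricles. The most abundant in atria, Vwf, had −0.20 and −0.06, and the most abundant in ventricles, Kdr, had −0.12 and −0.45. The defining marker Cdh5 had −0.46 and −0.42, and no marker was at 0. In atria 2 of 9 markers (Pecam1 and Tek) were past the threshold and lower, against 2.12% of all genes, with the call of Tek kept in 3 of 6 fits that left out a mouse, and in ventricles 0 of 9 were by edgeR or DESeq2, with 7 at an unadjusted P value under 0.05, against 25.7% of all genes. The summed levels of other marker lists were also apart between genotypes, so that 6 of the 10 lists did not overlap in atria and 5 of 10 in ventricles. Of all genes tested, each taken singly, 35.7% did not overlap in atria and 31.2% in ventricles. In atria the sum of 8 fibroblast markers was 2397 to 2772 CPM in controls and 1999 to 2368 CPM in CUG960 mice, that of 4 lymphatic endothelial markers 120.9 to 134.1 CPM and 100.7 to 115.4 CPM, and that of 7 neuron and Schwann cell markers 12.2 to 14.2 CPM and 9.18 to 11.5 CPM. The sum of the sinoatrial node list was higher in CUG960 atria, at 74.9 to 81.7 CPM against 69.1 to 73.9 CPM, but its genes were split. Hcn4 (2.55) and Vsnl1 (1.47) were past the threshold and higher, whereas Tbx3 (−0.63), Tbx18 (−0.53), Shox2 (−0.16) and the most abundant, Smoc2 (−0.13), had negative log2 differences. In ventricles the sum of 8 mural cell markers was 837.9 to 906 CPM in controls and 674.4 to 723.5 CPM in CUG960 mice, and the sums of the epicardial, neuronal and adipocyte lists were lower too, at no more than 6.09, 7.19 and 2.59 CPM in CUG960 mice against at least 6.63, 10.6 and 3.35 CPM in controls. Of the 5 epicardial markers only Wt1 had a negative log2 difference in ventricles (−0.70, adjusted P value 0.063), and the other 4 were between 0.13 and 0.44. The part of these cell types in the genotype differences of Hey2, Tbx5, Gata4, Tbx20 and Irx4 was not tested.

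Tbx5 was lower in CUG960 atria, with a log2 difference of −0.41 ± 0.08 (adjusted P value 0.014), or 1.33-fold, from 255.8 ± 24.3 CPM to 193.3 ± 10.6 CPM (SD, n = 3). The adjusted P value stayed under 0.05 in 4 of 6 fits that left out a mouse, and was 0.057 without V119 and 0.059 without V120. Gata4 was lower by −0.25 ± 0.06 (0.023), or 1.19-fold, from 124.3 ± 5.08 CPM to 105.1 ± 0.714 CPM, and its adjusted P value was under 0.05 in 2 of 6 such fits. Both differences were inside the 1.5-fold limit. Tbx20 (−0.27 ± 0.13, adjusted P value 0.20) and Nkx2-5 (−0.20 ± 0.12, 0.29) had negative estimates with overlapping groups, and Hand2 (0.06 ± 0.07, 0.60), Nr2f1 (0.10 ± 0.07, 0.40) and Nr2f2 (0.17 ± 0.08, 0.23) had positive ones.

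In ventricles 0 of the 9 factors were past the threshold by edgeR, where 1.76% of all genes tested were past it and lower in CUG960 mice and 3% past it and higher, and 0 of 9 were past it by DESeq2, which passed 5.66% of all genes. At any fold change 3 of 9 (Hey2, Tbx20 and Irx4) had an adjusted P value under 0.05, against 9.94% of all genes, and 4 of 9 had an unadjusted P value under 0.05, against 25.7% of all genes. The groups of 4 factors (these 3 and Gata4) did not overlap, as was the case for 31.2% of all genes. The median log2 difference of the 9 was 0.06, and that of all genes −0.01.

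Tbx20 was higher in CUG960 ventricles, at 154.5 ± 13.1 CPM against 115.4 ± 11.1 CPM (SD, n = 3), a log2 difference of 0.42 ± 0.09 (adjusted P value 0.026), or 1.33-fold. Irx4 was higher as well, at 32.0 ± 1.04 CPM against 24.8 ± 2.06 CPM, a log2 difference of 0.36 ± 0.09 (0.030), or 1.28-fold. Both had every CUG960 library above every control, and both stayed under an adjusted P value of 0.05 in only some fits without a mouse, 2 of 6 for Tbx20 and 1 of 6 for Irx4. Gata4 had a log2 difference of 0.09 ± 0.07 (0.47), Nkx2-5 0.10 ± 0.14 (0.71) and Tbx5 0.06 ± 0.10 (0.74). Nr2f1 (−0.36 ± 0.18, adjusted P value 0.26), Nr2f2 (−0.27 ± 0.12, 0.18) and Hand2 (−0.16 ± 0.10, 0.33) had negative estimates. The summed level of 6 cardiomyocyte markers was 16280 ± 377 CPM in control ventricles and 16440 ± 995 CPM in CUG960 ventricles, and it was 9882 ± 90.4 CPM in control atria and 8859 ± 198 CPM in CUG960 atria, where the genotypes did not overlap. These markers were split in atria, with negative log2 differences for Tnnc1 (−0.65, past the threshold), Ttn (−0.44), Actn2 (−0.25) and Tnni3 (−0.10), and positive ones for Mybpc3 (0.17) and Myom1 (0.14). The part of this difference in the lower atrial Tbx5 and Gata4 was not tested.

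**Figure D3:**
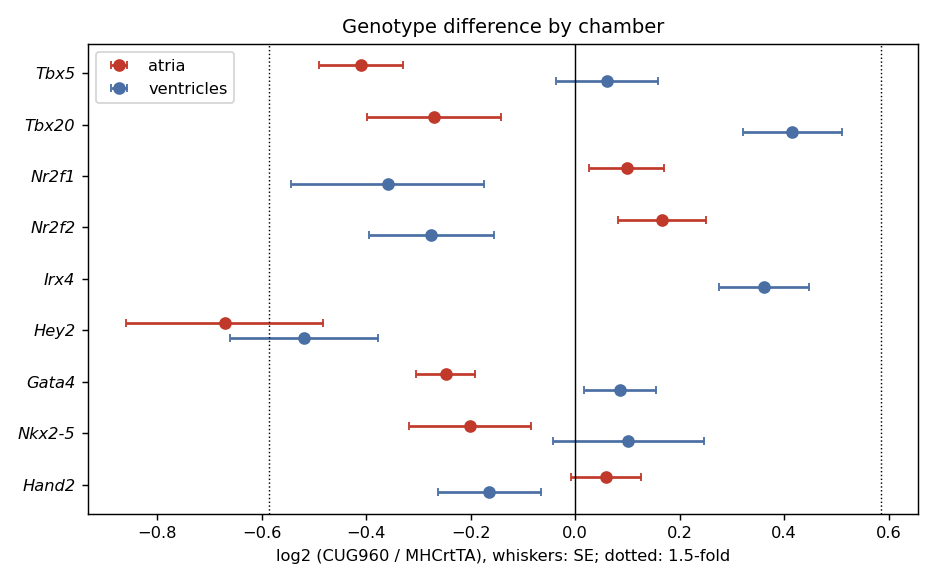
Fitted log2 difference of CUG960 mice against MHCrtTA controls for each factor in atria (red) and ventricles (blue), with whiskers for the SE and dotted lines at the 1.5-fold limit. Hey2 was lower in both chambers, at −0.67 and −0.52, and Irx4 has no atrial point because it was not tested there.

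Whether the genotype difference itself differed between chambers was tested as an interaction over all 12 libraries. None of the 9 factors passed an adjusted P value of 0.05 by edgeR (0 of 9, against 1.38% of all genes tested), and 5 of 9 had an unadjusted P value under 0.05, against 12.3% of all genes. DESeq2 passed 3 of 9, Gata4, Tbx20 and Tbx5, against 3.61% of all genes. The interaction, atria minus ventricles, was −0.33 ± 0.08 for Gata4 (adjusted P value 0.058), −0.68 ± 0.17 for Tbx20 (0.086), −0.47 ± 0.13 for Tbx5 (0.12), 0.44 ± 0.14 for Nr2f2 (0.18) and 0.46 ± 0.18 for Nr2f1 (0.29). It was −0.30 for Nkx2-5 (0.63), 0.22 for Hand2 (0.51), −0.15 for Hey2 (0.87) and −0.78 for Irx4 (0.62), whose atrial counts make it imprecise (SE 0.54) and which was −0.11 without V327. The 95% interval for Hey2 ran from −0.61 to 0.31.

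The same pattern was read within mice, as the ratio of atria to ventricles. For Tbx20 the ratio was 2.44, 3.33 and 2.34 in controls and 1.41, 1.77 and 1.83 in CUG960 mice. For Gata4 it was 1.08, 1.19 and 1.13 in controls and 0.914, 0.875 and 0.915 in CUG960 mice. For Nr2f1 it was 11.4, 10.7 and 9.49 in controls and 11.5, 17.4 and 15.7 in CUG960 mice. In these 3 and in Nr2f2 and Nkx2-5 the ratios of the genotypes did not overlap (exact two-sided permutation test of 3 mice against 3, P = 0.1 for each, the smallest it can give). These 5 of 9 stood against 19.5% of the 17433 genes with counts in every library. The lowest Nr2f1 ratio of CUG960 mice, in V119, was hardly above the highest of the controls. The Tbx5 ratio was 8.38, 6.13 and 8.26 in controls and 5.30, 4.83 and 6.25 in CUG960 mice and overlapped between V333 and V123 (exact permutation test, P = 0.2).

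**Figure D4:**
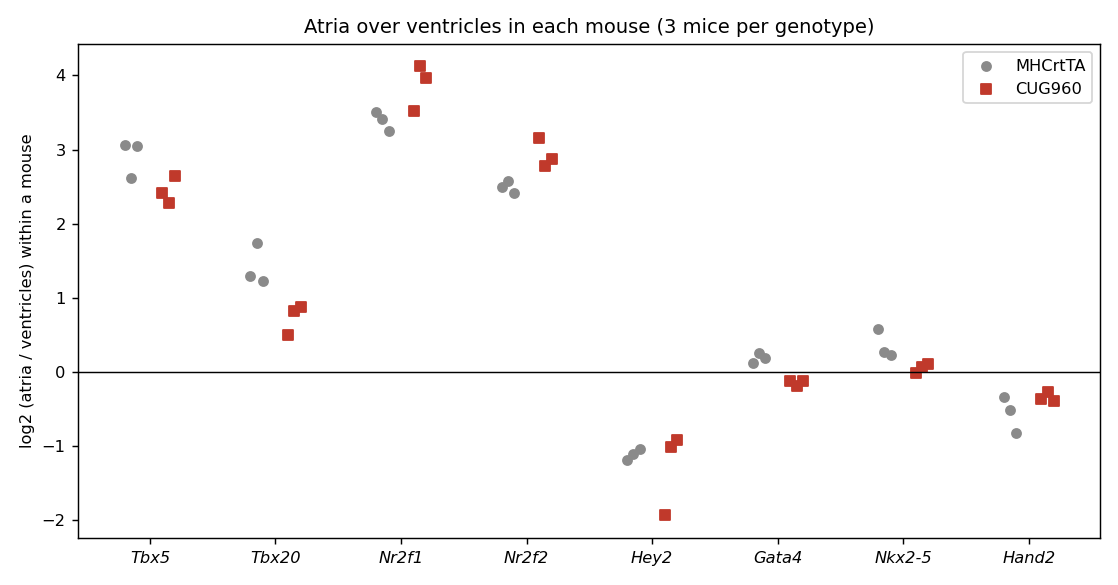
Log2 ratio of atria to ventricles within each mouse for 8 factors (3 MHCrtTA controls, gray circles, and 3 CUG960 mice, red squares), with Irx4 left out because of its atrial counts of 2 to 10. With TMM scaling, the Gata4 ratios lie above 0 in controls and below 0 in CUG960 mice.

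Markers of other cell types also differed between chambers. The summed level of 8 fibroblast markers was 2633 ± 206 CPM in control atria and 1452 ± 121 CPM in control ventricles, that of 5 epicardial and mesothelial markers 252.5 ± 11.7 CPM and 6.85 ± 0.354 CPM, that of 8 mural cell markers 388.2 ± 44.0 CPM and 882.2 ± 38.4 CPM, and that of 9 endothelial markers 1035 ± 118 CPM and 1024 ± 90.4 CPM. The endothelial markers were split behind these near-equal sums. In control atria 2 of 9 were past the threshold and higher (18.3% of all genes), Vwf (log2 difference 2.74) and Emcn (0.95). Another 3 were past it and lower (16.6% of all genes), Kdr (−1.21), Cdh5 (−1.1) and Flt1 (−0.85). The sums of the remaining non-cardiomyocyte lists in control atria and control ventricles were, respectively, 126.0 and 102.1 CPM for lymphatic endothelial cells, 85.4 and 35.8 CPM for leukocytes, 71.8 and 142.3 CPM for the sinoatrial node, 13.3 and 11.3 CPM for neurons and Schwann cells, and 7.08 and 4.30 CPM for adipocytes. The genes of the sinoatrial node list were split between control chambers. Vsnl1 (log2 difference 7.15) and Shox2 (2.22) were past the threshold and higher in atria. Hcn4 (−2.15), Tbx3 (−1.41) and the most abundant, Smoc2 (−1.34), were past it and lower, and Tbx18 (0.48) was not past it. Over all libraries the most abundant genes of the fibroblast, epicardial, mural and endothelial lists were Dcn, Upk3b, Rgs5 and Pecam1. In control atria, however, Acta2 (167.3 CPM) was above Rgs5 (89.9 CPM) and Vwf (269.1 CPM) above Pecam1 (234.3 CPM). In control ventricles Wt1 (4.9 CPM) was above Upk3b (1.05 CPM) and Kdr (211.2 CPM) above Pecam1 (179.1 CPM). No marker of these lists was at 0 in all libraries. The part of these cells in the higher atrial Nr2f1, Nr2f2, Tbx5 and Tbx20 was not tested.

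Long noncoding genes lie close to 5 of the factors on the opposite strand. Tbx5 and the lincRNA Gm43050 start 748 bases apart without sharing exons, A830082K12Rik overlaps exons of Nr2f1, B130024G19Rik shares 643 exon bases with Nr2f2, Hand2os1 shares 461 with Hand2, and Gm29824 starts 2164 bases from Tbx20. The libraries were stranded, but the strand setting of the counting is not given in the sources used here, so counts in shared exon bases are uncertain. Gm43050 was at 5.56 ± 0.668 CPM in control atria and 2.07 ± 0.354 CPM in control ventricles, A830082K12Rik at 3.23 ± 0.176 and 0.697 ± 0.110 CPM, and B130024G19Rik at 0.893 ± 0.174 and 0.398 ± 0.0287 CPM (SD, n = 3). All 3 were past the threshold and higher in atria in both genotypes, like the factors beside them. Of all genes tested, 18.3% were so in controls and 17.2% in CUG960 mice. The log2 differences of the 3 were 1.42, 2.20 and 1.15 in controls and 1.67, 2.63 and 1.19 in CUG960 mice. Levels of Hand2os1 and Gm29824 were not analyzed here.

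The closest patterns over the 12 libraries were found for the 6 factors past the threshold between chambers, by the root mean square difference of centered log2 CPM among 13111 genes. Irx4 was closest to Myl3 (0.39) and Myl2 (0.42), ventricular myosin light chains, and then Gm34302 (0.585). Nr2f2 was closest to Nat8f4 (0.14), Kcnj3 (0.15), a subunit of the acetylcholine-gated potassium channel, and Susd2 (0.18). Hey2 was closest to Aspn (0.191), Srgap1 (0.195) and the endothelial cadherin Cdh5 (0.195), and the endothelial markers as a list were split between chambers. Tbx5 was closest to Psd3 (0.17), Ppl (0.20) and Cers6 (0.21). Tbx20 was closest to Pcdhgc3 (0.14), Zcchc5 (0.14) and Grk3 (0.15), and Nr2f1 to Cib2 (0.22), Stk26 (0.23) and Zfp579 (0.26).

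Relatives of the 9 factors were also split by chamber. Of 16 listed, 13 were tested in controls, of which 3 were past the threshold and higher in atria (Gata5, Gata6 and Hey1, against 18.3% of all genes) and 7 were lower (Irx1, Irx2, Irx3, Irx5, Tbx1, Tbx2 and Tbx3, against 16.6% of all genes), with a median log2 difference of −0.59 against 0.03 for all genes. With library totals as the scale Tbx2 no longer passed (−0.14), and among the fits that left out a mouse it passed only without V327 (1 of 3), while Hey1 did not pass without V327 (0.69, adjusted P value 0.051). Irx3 was at 0.852, 0.706 and 0.459 CPM in control atria and 13.0, 11.1 and 12.6 CPM in control ventricles, a log2 difference of −4.20 (adjusted P value 1.5e-06), so that 5 of the 6 Irx family genes, Irx4 among them, were higher in ventricles and Irx6 was not tested. Gata5 was the reverse, at 4.66, 3.91 and 2.92 CPM in control atria and 0.0989, 0.104 and 0.0445 CPM in control ventricles, a log2 difference of 5.52 (3.0e-06), unlike Gata4 of the same family. Hey1 (0.76, adjusted P value 0.0079) went the other way from Hey2. Between genotypes 0 of 12 relatives tested in atria and 0 of 13 in ventricles were past the threshold by edgeR, with 5 and 3 at an unadjusted P value under 0.05 (30.2% and 25.7% of all genes), and DESeq2 passed Tbx3 in atria and 0 in ventricles.

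Genes that the factors are known to act on were past the threshold in both directions. Of 15 such target genes, 2 fell and none rose past the threshold in CUG960 atria (2.12% and 3.37% of all genes), and 2 rose and 2 fell in CUG960 ventricles (3% and 1.76% of all genes). An unadjusted edgeR P value under 0.05 was found for 10 of 15 in atria (30.2% of all genes) and 11 of 15 in ventricles (25.7%). At any fold change, 7 and 6 of 15 had an adjusted P value under 0.05, against 14.6% and 9.94% of all genes. The list was chosen with earlier results of these data known. The median log2 difference of the 15 was −0.23 in atria and −0.11 in ventricles, against −0.01 for all genes in each chamber. Gja5, the connexin 40 gene and a target of Tbx5, was at 36.1, 43.7 and 42.6 CPM in control atria and 15.9, 12.02 and 15.3 CPM in CUG960 atria. It fell by 1.51 on the log2 scale (SE 0.12, adjusted P value 3.1e-04), with no overlap. Corin, the protease that activates natriuretic peptide, fell by 0.68 in atria (SE 0.12, 0.0076). In ventricles Nppa, the atrial natriuretic peptide gene, was at 48.4, 54.1 and 84.6 CPM in controls and 86.7, 224.8 and 151.1 CPM in CUG960 mice, and it rose by 1.3 (SE 0.31, 0.031) with V119 hardly above the highest control. Nppa was between 11430 and 16560 CPM in atria, and V123, whose ventricles held 2.20% of the atrial Myl7 level, had 151.1 CPM in ventricles. Without V123 the ventricular difference was 1.31 (0.063), and the call was kept in 2 of 6 fits that left out a mouse. The part of atrial RNA in it was not tested. In ventricles Ankrd1 rose by 1.16 (SE 0.12, 6.9e-04), while Scn10a fell by 2.18 (SE 0.22, 5.0e-04) and Ryr2, the cardiac ryanodine receptor, fell by 0.67 (SE 0.13, 0.015), which with library totals as the scale was −0.57 and inside the 1.5-fold limit. The calls of Gja5, Ankrd1 and Scn10a were kept in 6 of 6 such fits, that of Corin in 5 and that of Ryr2 in 3. The interaction of chamber and genotype passed for 3 of 15 by edgeR, against 1.38% of all genes, Nppa (−1.72, 0.049, and 0.15 without V123), Gja1 (−0.64, 0.0080, and 0.061 without V327) and Scn10a (1.92, 0.0025). Among the fits that left out a mouse, the interaction was kept in 2 of 6 for Nppa, 5 of 6 for Gja1 and 6 of 6 for Scn10a. DESeq2 passed these 3 genes and Ankrd1 and Gja5, 5 of 15 against 3.61% of all genes.

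Genes that mark the chambers as such were largely placed as their names say. Of 11 atrial cardiomyocyte genes 10 were past the threshold by edgeR and higher in atria in both genotypes (median log2 difference 6.37 in controls), and Kcna5, a potassium channel gene, was lower (−1.87), where 18.3% of all genes were higher and 16.6% lower in controls and 17.2% and 16.4% in CUG960 mice. DESeq2 passed 11 of 11 in controls and 9 of 11 in CUG960 mice, where it gave no P value for Myl4 and Sln. In CUG960 mice the log2 differences of Myl7, Myl4 and Sln were 7.26, 7.27 and 7.74, and without V123 they were 13.61, 10.00 and 12.31. Of 8 ventricular cardiomyocyte genes 7 were lower in control atria (median −3.41), and Myh7, the β-myosin heavy chain gene, was not past the threshold (−0.35). With library totals as the scale Kcnd2 did not pass in controls either (−0.41). In CUG960 mice 6 of 8 were lower, since Kcnd2 did not pass (−0.26). Between genotypes 1 atrial gene fell in ventricles (1.76% of all genes), Bmp10, from 2.42, 2.38 and 3.74 CPM to 0.0343, 0.276 and 0.207 CPM. Among CUG960 ventricles, Myl7 and Sln were low in 2 mice and high in V123. Myl7 was at 0.192 and 0.305 CPM in V119 and V120 and 55.8 CPM in V123, against 7.98, 4.95 and 19.3 CPM in controls, and Sln at 0.213, 0.341 and 18.5 CPM, against 2.89, 2.98 and 7.82 CPM. The log2 differences between genotypes in ventricles were 0.80 for Myl7 and 0.47 for Sln with all mice, and −5.44 (adjusted P value 0.0021) and −4.05 (0.0034) without V123, when that of Bmp10 was −4.21 (0.0057). The part of atrial RNA in the Bmp10 difference was not tested. Of the ventricular genes 1 of 8 rose in CUG960 atria (3.37% of all genes), Lbh, by 0.64 (SE 0.06, adjusted P value 7.8e-04).

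Of 12 other cardiac transcription factors, 11 were tested. In controls 3 were higher in atria (Shox2, Myocd and Foxp1) and Prdm16 was lower (−3.21), against 18.3% and 16.6% of all genes. In CUG960 ventricles Myocd, a coactivator of SRF, was the only one to pass between genotypes by edgeR or DESeq2. This was 1 of 11, against 3% of all genes past the threshold and higher by edgeR and 5.66% past it by DESeq2. Its edgeR log2 difference was 0.61 (SE 0.14, adjusted P value 0.028), a call kept in 1 of 6 fits that left out a mouse. In atria 0 of 11 passed by either tool (3 at an unadjusted P value under 0.05, against 30.2% of all genes). Of 15 cofactors and partners, 0 passed between genotypes in either chamber by edgeR or DESeq2 (4 in atria and 3 in ventricles at an unadjusted P value under 0.05, against 30.2% and 25.7% of all genes). The interaction passed for 1 of 15 by either tool, against 1.38% of all genes by edgeR and 3.61% by DESeq2. This was Smarcd3, a subunit of the BAF remodeling complex that binds with Tbx5 and Gata4. Smarcd3 was at 97.1, 105.9 and 91.1 CPM in control atria and 153.1, 135.8 and 136.7 CPM in CUG960 atria, a log2 difference of 0.53 (adjusted P value 0.0046, inside the 1.5-fold limit), and its ventricular difference was −0.01 (interaction 0.54, 0.034, and 0.47, 0.086 with library totals as the scale), and the interaction passed in 0 of 6 fits that left out a mouse. Its atrial groups did not overlap. Of 13 genes of Notch and retinoic acid signaling, which act upstream of Hey2 and of atrial identity, 0 passed in atria by edgeR or DESeq2 (4 at an unadjusted P value under 0.05, a share near that of all genes). In ventricles 1 of 13 passed by either tool, against 1.76% of all genes past the threshold and lower by edgeR and 5.66% past it by DESeq2. An unadjusted P value under 0.05 was found for 3 of 13 there, against 25.7% of all genes. The gene that passed, Aldh1a2, which makes retinoic acid, fell by 0.73 (SE 0.16, adjusted P value 0.020 by edgeR), a call kept in 2 of 6 such fits.

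**Figure D5:**
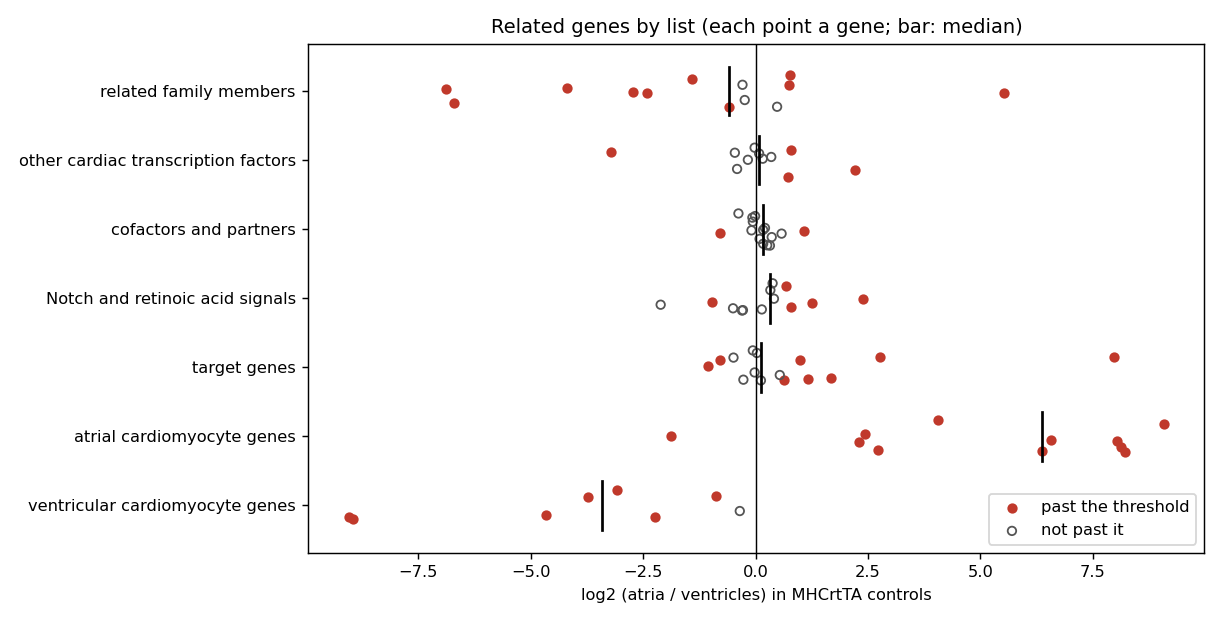
Log2 difference of atria against ventricles in MHCrtTA controls for the genes of 7 lists, each point a gene, filled where past the threshold, with a bar at the list's median. Atrial cardiomyocyte genes have a median of 6.37, ventricular ones −3.41, and the relatives of the 9 factors −0.59.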

How the data were processed

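Both chambers of each of 6 mice were sequenced as poly(A) RNA, which gave 12 libraries. The authors aligned reads to mm10 (GRCm38), estimated expected counts per gene with RSEM 1.3.1 and deposited them as whole numbers, without scaling. Of 51826 entries, 92 had a symbol seen before, and depth was 116127966 to 160676189 counts. For all 9 factors, no 100-base stretch of a transcript recurred in another gene. Gene models were from GENCODE M21 and promoters from RefSeq, both on GRCm38.

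Genes were filtered by filterByExpr, scaled by TMM and tested by the quasi-likelihood test of edgeR 4.0.16 in R 4.3.3 within each chamber or genotype, with the interaction fitted over 12 libraries. P values were adjusted by Benjamini-Hochberg over all genes tested. Permutation tests were computed with scipy 1.17.1 and cannot go under 0.1. The steps were tested on simulated data. The alternatives were DESeq2 1.42.0, RLE and upper quartile scaling, no mitochondrially encoded genes, other count filters and fold change limits, all 12 libraries in a single fit, a mouse block and leaving out each mouse. Library totals without scaling were added after seeing the data.

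Atria and ventricles of a mouse come from the same animal. After subtraction of group means, the chambers of 1 mouse had a correlation over genes of 0.030 to 0.129 (6 pairs), and chambers of different mice of −0.137 to 0.0473.

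The 9 factors, the 7 gene lists and the 10 marker lists were chosen with earlier results of these data known. A gene of the list of other cardiac transcription factors is not reported here and is not in that list's counts. Named genes were the 9 factors, up to 4 genes past the threshold per list and comparison, the most abundant markers and the genes of closest pattern. Neighboring antisense genes, further genes of the lists (among them Myh7, Irx6, Kcnd2, Myl4 and Cdh5) and the Smarcd3, Irx3, Irx1, Irx2, Hcn4, Sln, Myl7 and Myl2 values per mouse were picked after they were seen.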

Additional observations from a re-analysis of the deposited data

Results flagged for a closer look

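Tbx20 and Gata4 had genotype estimates of opposite sign in the chambers, of which the atrial one of Tbx20 (−0.27, adjusted P value 0.20) and the ventricular one of Gata4 (0.09, 0.47) did not pass an adjusted P value of 0.05. All 3 CUG960 mice were under the control mean of Tbx20 in atria and above it in ventricles, with an interaction of −0.68 (adjusted P value 0.086 by edgeR). For Gata4 the interaction was −0.33 (0.058), and with TMM scaling the ratio of atria to ventricles was above 1 in all 3 controls and under 1 in all 3 CUG960 mice. With library totals as the scale this ratio was above 1 in every mouse of both genotypes. Both passed in DESeq2 (0.0087 and 0.0025), and in other edgeR fits Tbx20 passed without a count filter (0.017) and Gata4 with a minimum of 10 counts per library (0.046) or with library totals (0.034). Over the fits that left out a mouse the interaction was between −0.79 and −0.53 for Tbx20 and between −0.37 and −0.31 for Gata4, with adjusted P values of 0.087 to 0.34 and 0.13 to 0.24.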

How the results depend on the processing

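The atrial values of Irx4 rest on 2 to 10 counts. The 12 calls of factors between chambers held under each alternative that tested them, apart from Hey2 and Tbx20 under a log2 fold change limit of 1.5, and Irx4 was not tested with a minimum of 10 counts per library. Hey2 in atria did not: 0 factors passed there with RLE factors (adjusted P value 0.051), with a log2 limit of 1.5 or with library totals (0.056), 3 passed without a fold change limit, and 0 to 1 when a mouse was left out. In ventricles 3 passed without a limit and 0 to 1 without a mouse. For the interaction, 3 passed in DESeq2, 1 (Tbx20) without a count filter, 1 (Gata4) with a minimum of 10 counts per library, and 2 (Gata4 and Tbx5) with library totals. Hand2 passed between chambers in controls with DESeq2 (−0.60), RLE (−0.60), and without V327 (−0.68) or V333 (−0.61), and Gata4 (0.63) and Nkx2-5 (0.79) did so with library totals.

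Genes past the threshold were 969 in atria (216 with the log2 limit of 1.5, 2573 without a limit), 804 in ventricles (199, 1680), 6098 between chambers in controls (2233, 9726) and 5900 in CUG960 mice (2200, 9517). For the interaction they were 253, against 660 in DESeq2 and 74 to 131 without a mouse. Library totals changed the split of higher against lower calls from 3194 and 2904 to 6918 and 1452 between chambers in controls, from 3021 and 2879 to 6028 and 1539 in CUG960 mice, from 507 and 297 to 779 and 187 between genotypes in ventricles, and from 126 and 127 to 81 and 154 in the interaction. Signs reversed for Nkx2-5 in ventricles without V327 (−0.00014) or V120 (−0.011; highest 0.248), Tbx5 in ventricles without V120 (−0.004; highest 0.143), the Hey2 interaction without V119 (0.162; lowest −0.339), and, with library totals, Gata4 (0.225) and Hand2 (0.028) between chambers of CUG960 mice; the cause was not tested. With the mouse as a replicate block, 6113 genes passed between chambers in controls and 5899 in CUG960 mice, and no call of a factor changed.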

Other observations

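Irx1 and Irx2, relatives of Irx4, varied more between CUG960 ventricles than Irx4 did. Irx1 was at 20.6, 6.30 and 2.83 CPM in V119, V120 and V123, and Irx2 at 15.03, 1.83 and 1.60 CPM, against 32.0, 33.0 and 30.9 CPM for Irx4. The ventricles of V119 also held the most Hcn4, a pacemaker channel gene, at 21.8 CPM against 9.20 and 11.6 CPM in V120 and V123. In control ventricles Irx1 was between 5.47 and 10.2 CPM and Irx2 between 2.84 and 5.58 CPM.

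Bmp10, a growth factor gene of atrial cardiomyocytes, did not follow Myl7 and Sln in V123 ventricles. Myl7 was at 55.8 CPM and Sln at 18.5 CPM there, both above all other ventricular libraries, whereas Bmp10 was at 0.207 CPM, under all 3 controls.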
